A study of Homo sapiens with 12 samples.

Results

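The NF-κB genes followed here were the 5 genes of the NF-κB/Rel transcription factor subunits (NFKB1, NFKB2, REL, RELA and RELB), 3 genes of inhibitors of the pathway (NFKBIA, NFKBIE and TNFAIP3) and 2 target genes (BIRC3 and TNF). They were taken by name, as the rows whose gene name equals one of these symbols. All 10 were listed among the 14866 genes measured in SHI-1 cells, and all 10 passed the filter on low values that left 13502 genes for testing. The SHI-1 line was established from acute myeloid leukemia and carries the MLL-AF6 fusion. The cells were exposed for 16 h to DMSO (the vehicle), to 0.3 µM disulfiram with 1 µM copper (DSF), to 5 µM niclosamide (NSM) or to both treatments at these doses (DSF+NSM), with 3 libraries per group from independent experiments. Whether copper was added to the DMSO and NSM cells is not stated. All groups came from the 1 cell line and the 1 time point.

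NF-κB is a family of dimeric transcription factors. In resting cells IκB proteins, such as those encoded by NFKBIA and NFKBIE, hold the dimers in the cytoplasm. Signals from tumor necrosis factor, interleukin-1 and Toll-like receptors activate IκB kinase, which marks IκB for degradation by the proteasome and lets RELA, REL and NFKB1 dimers enter the nucleus. A slower, non-canonical arm processes the NFKB2 precursor to p52, the partner of RELB. NF-κB in turn induces its own subunits NFKB2 and RELB, its inhibitors NFKBIA and TNFAIP3, and cytokines of monocytic cells such as TNF, so these transcripts serve as a common readout of the pathway. Disulfiram with copper and niclosamide have both been described as blockers of NF-κB signalling, which makes the direction of these transcripts of interest. Only RNA levels were measured here, not protein, phosphorylation or nuclear entry.

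Several of these genes carry sequences of the kind that NF-κB binds close to their transcription starts. The 10-base κB consensus was searched on both strands in RefSeq promoter windows of GRCh38.p14, each with 250 bases before and 50 after a start. Windows were found for 8 of the 10 genes. In 6 of these 8 (NFKBIA, TNFAIP3, BIRC3, NFKB1, NFKB2 and REL) a match was present, against 7.09% of the 27305 genes with a window and 5.91% of all 35116 windows. TNF and RELA had no match in their windows. RELB and NFKBIE were without an entry. The sequences are shown because the κB site is the element through which NF-κB acts on its target genes. They are printed 5′ to 3′ on the gene's strand, with matches to the consensus on either strand in capitals. A match is a description of the letters and not a measured binding site. The genes were chosen as NF-κB subunits, inhibitors and targets, so a high share with matches is not independent support.

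The upstream parts of NFKBIA (chr14:35404750-35404999, minus strand, bases -250 to -1 from the start) and BIRC3 (chr11:102317234-102317483, plus strand, bases -250 to -1) hold no annotated exon (GENCODE 44). The NFKBIA match lies at -81 to -72, and the BIRC3 matches lie at -199 to -190 and -135 to -126.

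NFKBIA: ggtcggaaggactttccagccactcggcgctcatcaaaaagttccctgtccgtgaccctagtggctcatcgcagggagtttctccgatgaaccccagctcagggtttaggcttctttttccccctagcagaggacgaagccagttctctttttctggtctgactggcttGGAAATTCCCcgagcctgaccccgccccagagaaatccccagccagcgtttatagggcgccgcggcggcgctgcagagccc

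BIRC3: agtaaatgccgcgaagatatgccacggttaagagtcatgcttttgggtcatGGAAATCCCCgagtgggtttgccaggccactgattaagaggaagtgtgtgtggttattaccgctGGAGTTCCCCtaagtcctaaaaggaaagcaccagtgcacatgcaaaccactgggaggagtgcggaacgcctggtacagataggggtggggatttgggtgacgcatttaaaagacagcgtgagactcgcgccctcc

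For the other genes only 30 bases around the matches are printed. The TNFAIP3 stretch (chr6:137867188-137867217, plus strand) holds 2 matches and reaches into an annotated exon of the gene. NFKB2 stretch a (chr10:102394462-102394491, plus strand) holds overlapping matches on both strands and overlaps an NFKB2 exon, stretches b (chr10:102394490-102394519) and d (chr10:102395674-102395703) hold 1 match each and overlap annotated NFKB2 exons, and stretch c (chr10:102395519-102395548) holds 1 match outside annotated exons. The NFKB1 stretch (chr4:102501300-102501329, plus strand) overlaps an exon of the long non-coding RNA gene ENSG00000260651. The REL stretch (chr2:60881518-60881547, plus strand) overlaps an exon of REL.

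TNFAIP3: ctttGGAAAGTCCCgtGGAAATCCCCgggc

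NFKB2 a: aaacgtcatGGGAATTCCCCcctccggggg

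NFKB2 b: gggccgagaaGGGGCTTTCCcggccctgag

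NFKB2 c: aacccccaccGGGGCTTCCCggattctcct

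NFKB2 d: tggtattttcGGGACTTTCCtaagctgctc

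NFKB1: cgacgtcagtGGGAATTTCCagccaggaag

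REL: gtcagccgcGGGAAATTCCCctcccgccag

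The values are normalized counts, that is, estimated read counts per gene that the authors scaled. Whether the scaling used the same factor for all genes of a library was not established. The depth was estimated from the values as 10200000 to 19000000 reads per library, so the lowest genes in DMSO (REL and BIRC3) rest on few reads. The sum of normalized counts was 14000000 to 14400000 in DMSO, 14900000 to 15300000 in DSF, 16500000 to 17500000 in NSM and 22700000 to 25600000 in DSF+NSM libraries. When all libraries were scaled to the same sum instead, the median log2 change of all genes against DMSO moved to -0.05 with DSF, -0.25 with NSM and -0.75 with DSF+NSM, from 0.05, 0.01 and 0.03 as deposited. Genes of ribosomal RNA took 1.88% to 3.58% of the sum in DMSO, 4.65% to 5.99% in DSF, 4.70% to 5.53% in NSM and 9.63% to 11.7% in DSF+NSM libraries. Of 11 myeloid leukemia markers, 10 were listed, and all 10 had a mean of at least 10 (KIT was not analysed). Their summed level was 68345 to 77743 in DMSO, 46631 to 53409 with DSF, 26907 to 36132 with NSM and 32721 to 34785 with DSF+NSM. Most of it came from MPO, the gene of myeloperoxidase, with means of 58058, 31892, 16981 and 21249 in that order. The other markers did not all follow the sum. ITGAM had means of 550 in DMSO and 1549 with DSF, CD14 59.6 and 389, CSF1R 78.6 and 136, and SPI1 4560 and 5263. CD33 was also higher with DSF (means of 834 and 954), and LYZ was lower (765 and 679). The DMSO and DSF libraries overlapped for CEBPA (means of 2746 and 2790) and CD4 (5033 and 5281). With NSM and with DSF+NSM the means of SPI1, ITGAM and CD14 were above DMSO. Those of CEBPA, CD33, LYZ, CSF1R and CD4 were below it. NSM replicate 3 stood apart, with a Spearman correlation of 0.939 and 0.950 to the other NSM libraries, against 0.980 to 0.996 for all other pairs within a group. FLT3 was at 530.4 in DSF+NSM replicate 1 and 164 in NSM replicate 2, against at most 19.6 in the other 10 libraries, and the summed B cell markers reached 168 in that DSF+NSM library. T cell markers summed to 75.7 to 82.7 in DMSO and 137 to 185 in DSF+NSM (CD3E, with CD3D near 0), and the fibroblast marker COL1A1 stood at 22.4 ± 2.39 in DMSO and 105 ± 36.8 in DSF+NSM (mean ± SD, n = 3). The part of the ribosomal RNA share and of these markers in the results was not tested. Member counts without NSM replicate 2, NSM replicate 3 or DSF+NSM replicate 1 are given below. In RNA from whole cultures, a change in the share of cells that express a gene and a change in RNA per cell cannot be told apart.

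Most of the NF-κB genes were higher under each treatment, and none was called lower than DMSO. Changes were tested with limma on log2(normalized count + 1), all 12 libraries in 1 model, and a gene was called at an adjusted p under 0.05 over all 13502 genes. With DSF, 7 of the 10 were called higher (11.9% of all genes tested were) and 0 lower (5.95% were). With NSM, 7 were called higher (25.4% of all genes) and 0 lower (23.7%). With DSF+NSM, 8 were called higher (28.3%) and 0 lower (24.5%). The median log2 change of the 10 genes was 1.16, 1.23 and 1.78, against 0.05, 0.01 and 0.03 for all genes tested. These 3 comparisons share the same DMSO libraries. Without NSM replicate 3 the counts were 9, 8 and 10, all of them higher, but the share of all genes called higher grew too, to 23.6%, 31.2% and 35.3%. Without DSF+NSM replicate 1 they were 7, 6 and 8 (10.9%, 25.0% and 24.4% of all genes), and without NSM replicate 2 also 7, 6 and 8 (11.4%, 23.99% and 28.3%), again all higher. All 10 genes lay above DMSO in every DSF+NSM library (36.4% of all genes tested did, and 32.9% lay below). With DSF 8 genes lay wholly above DMSO (33.4% of all genes) and 0 below (27.6%), and with NSM 6 above (29.1%) and 1, TNF, below (27.9%). With libraries scaled to equal sums, 6 genes were called higher with DSF, 6 higher and 1 lower (TNF) with NSM, and 6 higher and 1 lower (NFKB1) with DSF+NSM. Of all genes, 8.95%, 16.4% and 11.3% were then called higher and 9.22%, 33.5% and 56.3% lower.

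**Figure D1:**
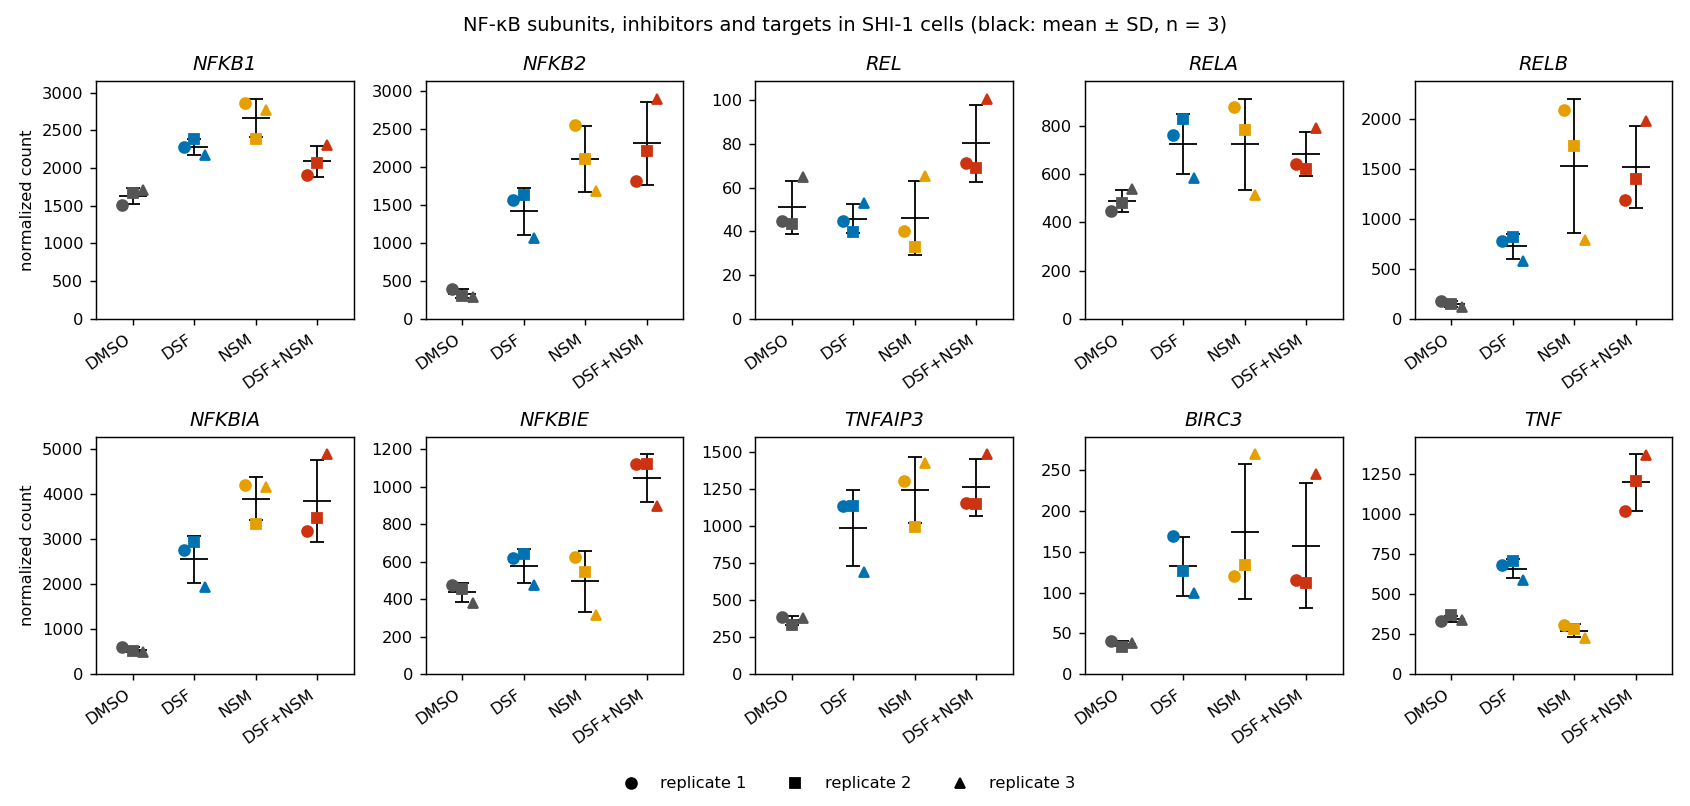
Normalized count (y axis, from 0, a separate scale per gene) of the 10 NF-κB genes in each library of the 4 groups (x axis). Coloured symbols are the 3 replicates and black bars are the mean ± SD. NFKB2, RELB, NFKBIA, TNFAIP3 and BIRC3 are above every DMSO library in all 9 treated libraries, whereas TNF is below DMSO with NSM and highest with DSF+NSM.

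NFKB2 and RELB, the subunit genes of the non-canonical arm, showed the steepest rises among the subunits. NFKB2 encodes the p100 precursor, which acts as an IκB-like inhibitor until it is processed to p52. It was listed at 396, 304 and 289 in the DMSO libraries and at 1557, 1624 and 1056 with DSF. It reached 2547, 2094 and 1678 with NSM, and 1812, 2210.2 and 2894 with DSF+NSM. All 9 treated libraries lay above all DMSO libraries. The log2 change was 2.08 ± 0.22 with DSF (SE; adjusted p = 7.08e-05), 2.66 ± 0.22 with NSM (adjusted p = 2.45e-06) and 2.79 ± 0.22 with DSF+NSM (adjusted p = 9.3e-07). RELB, which encodes the partner of p52, was at 179.5, 146 and 120.4 in DMSO and at 775, 819 and 582 with DSF. Its NSM libraries stood at 2082, 1722 and 786 and its DSF+NSM libraries at 1186, 1396 and 1978. The groups did not overlap with DMSO, but NSM replicate 3 was far below the other NSM libraries. RELB rose by a log2 change of 2.28 ± 0.32 with DSF (adjusted p = 0.000589), 3.26 ± 0.32 with NSM (adjusted p = 7.24e-06) and 3.33 ± 0.32 with DSF+NSM (adjusted p = 3.93e-06).

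NFKB1 and RELA, whose products form the classical p50 and p65 dimer, changed less. NFKB1 was at 1507, 1663 and 1705 in DMSO, 2281, 2382 and 2175 with DSF, 2857, 2382 and 2767 with NSM and 1903, 2064 and 2307 with DSF+NSM. The treated groups all lay above DMSO, and NSM held the highest library. NFKB1 rose by 0.49 ± 0.12 with DSF (SE, log2; adjusted p = 0.0149), 0.71 ± 0.12 with NSM (adjusted p = 0.000366) and 0.36 ± 0.12 with DSF+NSM (adjusted p = 0.0215). The sign of its DSF+NSM change depended on the scaling, since with equal sums the log2 change was -0.42 (adjusted p = 0.0108), while the median of all genes was then -0.75. RELA was at 446, 479 and 539 in DMSO, 761, 828 and 585 with DSF, 876, 782 and 512 with NSM and 640.0, 619.9 and 789 with DSF+NSM. The DSF and DSF+NSM libraries lay above DMSO, while NSM replicate 3 fell inside the DMSO range. Its log2 change was 0.56 ± 0.21 with DSF (adjusted p = 0.0794), 0.54 ± 0.21 with NSM (adjusted p = 0.0469) and 0.48 ± 0.21 with DSF+NSM (adjusted p = 0.0671). The RELA call with NSM was lost under 16 of 26 alternatives. RELA shares 103 exon bases with RELA-DT on the opposite strand, whose reads cannot be separated by a library kit that does not mark strand.

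REL, which encodes c-Rel, a subunit most used in lymphoid and myeloid cells, was the lowest of the 5. It was at 44.5, 43.5 and 65.0 in DMSO, 44.6, 39.6 and 52.8 with DSF, 40.2, 33.1 and 65.2 with NSM, and 71.1, 68.8 and 101 with DSF+NSM. The single-drug libraries overlapped with DMSO, and the DSF+NSM libraries lay just above all others. Against DMSO no comparison of REL passed the test (adjusted p = 0.776 with DSF, 0.636 with NSM and 0.0744 with DSF+NSM). In DSF+NSM it was higher than with DSF by 0.79 ± 0.29 (SE, log2; adjusted p = 0.0409) and than with NSM by 0.82 ± 0.29 (adjusted p = 0.0381), and each call was lost under 12 of 26 alternatives. REL shares 5702 exon bases with a long non-coding RNA gene on the same strand (ENSG00000267520), so its value is uncertain.

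The balance between the subunit transcripts shifted within each library, a measure that does not depend on a factor shared by all genes of the library. The ratio of NFKB2 to NFKB1 normalized counts was 0.169 to 0.263 in DMSO, 0.486 to 0.683 with DSF, 0.606 to 0.891 with NSM and 0.952 to 1.25 with DSF+NSM. The ratio of RELB to RELA was 0.223 to 0.402 in DMSO, 0.988 to 1.02 with DSF, 1.53 to 2.38 with NSM and 1.85 to 2.51 with DSF+NSM. Both ratios were above DMSO in all 9 treated libraries. Per kilobase of the main (MANE) transcript, the mean level of NFKB1 in DMSO was 401 normalized counts, that of RELA 194, NFKB2 109, RELB 65.8 and REL 4.59. With DSF+NSM the order was NFKB2 at 765, RELB at 673, NFKB1 at 516, RELA at 271 and REL at 7.22 per kilobase. On this scale NFKB1 was the highest subunit gene in DMSO and NFKB2 the highest with DSF+NSM.

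**Figure D2:**
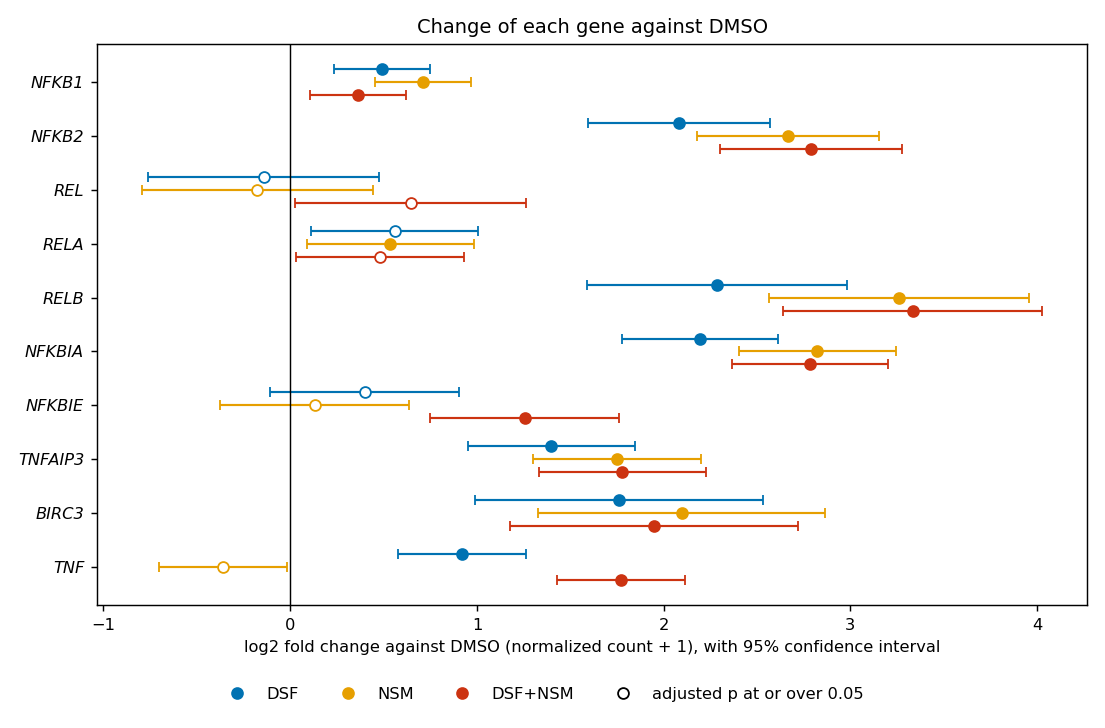
Log2 fold change against DMSO on the log2(normalized count + 1) scale (x axis) of the 10 NF-κB genes (y axis) with DSF, NSM and DSF+NSM. Points are estimates and bars are 95% confidence intervals. Filled points were called, and the intervals of NFKB2, RELB, NFKBIA, TNFAIP3 and BIRC3 stay above 0 under all 3 treatments.

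Among the inhibitors, NFKBIA and TNFAIP3 rose under every treatment and NFKBIE only passed the test under the combination. NFKBIA encodes IκBα, the inhibitor that NF-κB resynthesises to end its own activity. It was at 618, 529 and 505 in DMSO, 2764, 2943 and 1947 with DSF, 4209, 3346 and 4162 with NSM and 3184, 3473 and 4890.5 with DSF+NSM. The DMSO libraries were far below every treated library, and the NSM and DSF+NSM libraries overlapped. The mean was 4.63 times that of DMSO with DSF, 7.09 times with NSM and 6.99 times with DSF+NSM. The log2 change was 2.19 ± 0.19 (SE; adjusted p = 1.39e-05), 2.82 ± 0.19 (adjusted p = 6.11e-07) and 2.78 ± 0.19 (adjusted p = 2.66e-07) in the same order. Per kilobase NFKBIA was the highest of the 10 genes under each treatment, at 1637, 2505 and 2469 normalized counts, and at 353 it was second to NFKB1 in DMSO.

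TNFAIP3 encodes A20, a ubiquitin-editing enzyme that switches off signalling upstream of IκB kinase. It was at 383, 330.0 and 382 in DMSO, 1134, 1133 and 692 with DSF, 1305, 993 and 1422 with NSM and 1153, 1146 and 1483 with DSF+NSM. All treated libraries were above DMSO. The NSM libraries overlapped with those of both other treatments, whereas all DSF+NSM libraries lay above all DSF libraries. TNFAIP3 rose by a log2 change of 1.40 ± 0.21 with DSF (SE; adjusted p = 0.000834), 1.75 ± 0.21 with NSM (adjusted p = 2.91e-05) and 1.78 ± 0.21 with DSF+NSM (adjusted p = 1.79e-05). It shares 95 exon bases with WAKMAR2 on the opposite strand.

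NFKBIE, the gene of IκBε, was at 477, 452 and 380.4 in DMSO, 620.0, 639 and 475 with DSF, 626, 547 and 315 with NSM and 1119, 1118 and 897 with DSF+NSM. The single-drug libraries overlapped with DMSO, whereas all DSF+NSM libraries lay above all others. The log2 change was 0.40 ± 0.23 with DSF (SE; adjusted p = 0.259) and 0.13 ± 0.23 with NSM (adjusted p = 0.664). With DSF+NSM it rose by 1.26 ± 0.23 (adjusted p = 0.000659). With equal sums the last value was 0.47 (adjusted p = 0.0881), and without NSM replicate 3 the single-drug changes were called too, at 0.40 with DSF (adjusted p = 0.0283) and 0.43 with NSM (adjusted p = 0.0231). The ratio of NFKBIA to NFKBIE within a library was 1.17 to 1.33 in DMSO, 4.10 to 4.61 with DSF, 6.11 to 13.2 with NSM and 2.85 to 5.45 with DSF+NSM, so the IκB transcripts were most uneven with NSM.

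The target genes BIRC3 and TNF behaved differently from each other. BIRC3 encodes cIAP2, a ubiquitin ligase of the TNF receptor complex that protects cells from death. It was at 40.3, 33.8 and 38.3 in DMSO, 170.0, 127 and 99.4 with DSF, 120.2, 134 and 269.6 with NSM and 116, 112 and 245 with DSF+NSM. Each treated library was above DMSO, with replicate 3 of NSM and of DSF+NSM well above the other 2 of its group. BIRC3 rose by a log2 change of 1.76 ± 0.35 with DSF (SE; adjusted p = 0.00568), 2.10 ± 0.35 with NSM (adjusted p = 0.000419) and 1.95 ± 0.35 with DSF+NSM (adjusted p = 0.000582). It shares 126 exon bases with ENSG00000288528 on the opposite strand.

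TNF, the gene of tumor necrosis factor, was at 334, 368 and 339 in DMSO and at 682, 704 and 591 with DSF. It was at 307, 280.0 and 228 with NSM and at 1015, 1206 and 1367 with DSF+NSM. The 4 groups did not overlap, with NSM lowest, then DMSO, DSF and DSF+NSM. TNF rose by a log2 change of 0.92 ± 0.16 with DSF (SE; adjusted p = 0.0022) and 1.77 ± 0.16 with DSF+NSM (adjusted p = 2.12e-06). With NSM the change was -0.36 ± 0.16 (adjusted p = 0.0744), which did not pass the test. With equal sums it passed (-0.63, adjusted p = 0.00992), and without NSM replicate 3 it was -0.24 (adjusted p = 0.129).

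The direct comparison of the drugs, NSM against DSF, asks which genes separate the treatments. Of the 10 genes, 2 were called higher with NSM (21.0% of all genes tested were) and 1 lower (23.4%). The counts are near the share in all genes. Without overlap between the groups, 2 genes were higher (25.6% of all genes) and 1 lower (29.1%). TNF was lower with NSM by a log2 change of -1.28 ± 0.16 (SE; adjusted p = 7.57e-05), and this call held under all 26 alternatives. NFKBIA was higher by 0.63 ± 0.19 (adjusted p = 0.0194) and RELB by 0.98 ± 0.32 (adjusted p = 0.0263). Neither of these passed with equal sums (0.46, adjusted p = 0.0959 and 0.80, adjusted p = 0.0709), and without DSF replicate 3 TNF alone was called (16.4% of all genes were then called higher and 18.7% lower). NFKB2 was at 0.58 ± 0.22 (adjusted p = 0.0518).

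The combination was then compared with each drug alone. Against DSF alone, 6 genes were called higher in DSF+NSM (21.7% of all genes were) and 0 lower (21.4%). TNF was higher by 0.85 ± 0.16 (SE, log2; adjusted p = 0.000999), NFKBIE by 0.86 ± 0.23 (adjusted p = 0.0101), RELB by 1.05 ± 0.32 (adjusted p = 0.0188), NFKB2 by 0.71 ± 0.22 (adjusted p = 0.023) and NFKBIA by 0.59 ± 0.19 (adjusted p = 0.0262), with REL as above. Without overlap 7 genes were higher (31.2% of all genes) and 0 lower (31.2%). With equal sums 0 were called higher (7.21% of all genes) and 2 lower (NFKB1 and RELA), while 53.8% of all genes were then called lower and the median of all genes was -0.68. NFKB1 and RELA differed from that median by -0.13 and -0.08. Without DSF replicate 3 and without DSF+NSM replicate 3 the counts were 1 and 2, all higher (17.5% and 19.7% of all genes). Against NSM alone, 3 genes were called higher (20.3% of all genes) and 1 lower (18.3%). TNF was higher by 2.14 ± 0.16 (adjusted p = 1.36e-06) and NFKBIE by 1.12 ± 0.23 (adjusted p = 0.0025), both under all 26 alternatives. Without overlap 3 genes were higher (22.2%) and 1 lower (19.3%). NFKB1 fell by 0.35 on the log2 scale (SE 0.12; adjusted p = 0.0331), a call that did not hold without DSF+NSM replicate 1, among others. For NFKBIA, NFKB2, RELB, TNFAIP3 and BIRC3 the difference between DSF+NSM and NSM lay between -0.15 and 0.12, and none passed the test. The 95% interval ran from -0.46 to 0.38 for NFKBIA, -0.36 to 0.61 for NFKB2, -0.62 to 0.77 for RELB, -0.42 to 0.48 for TNFAIP3 and -0.92 to 0.62 for BIRC3.

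Whether the combination equalled the sum of the single-drug changes was tested as an interaction on the log2 scale. For 6 of the 10 genes the combined change was below the sum (14.0% of all genes tested were called so), and for 1 it was above (12.1%). NFKBIA changed by 2.78 under the combination, against a sum of 5.02, a difference of -2.23 ± 0.27 (SE; adjusted p = 0.000182). The differences of the other 5 were -2.21 ± 0.45 for RELB (adjusted p = 0.00372), -1.96 ± 0.32 for NFKB2 (adjusted p = 0.000936), -1.91 ± 0.50 for BIRC3 (adjusted p = 0.0144), -1.37 ± 0.29 for TNFAIP3 (adjusted p = 0.00474) and -0.84 ± 0.17 for NFKB1 (adjusted p = 0.00317). TNF was the gene above the sum, with a combined change of 1.77 against a sum of 0.56 and a difference of 1.21 ± 0.22 (adjusted p = 0.002). These 7 calls held under all 25 alternatives in which they could be computed. REL (0.96 ± 0.40, adjusted p = 0.0981), NFKBIE (0.73 ± 0.33, adjusted p = 0.125) and RELA (-0.61 ± 0.29, adjusted p = 0.142) did not pass.

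**Figure D3:**
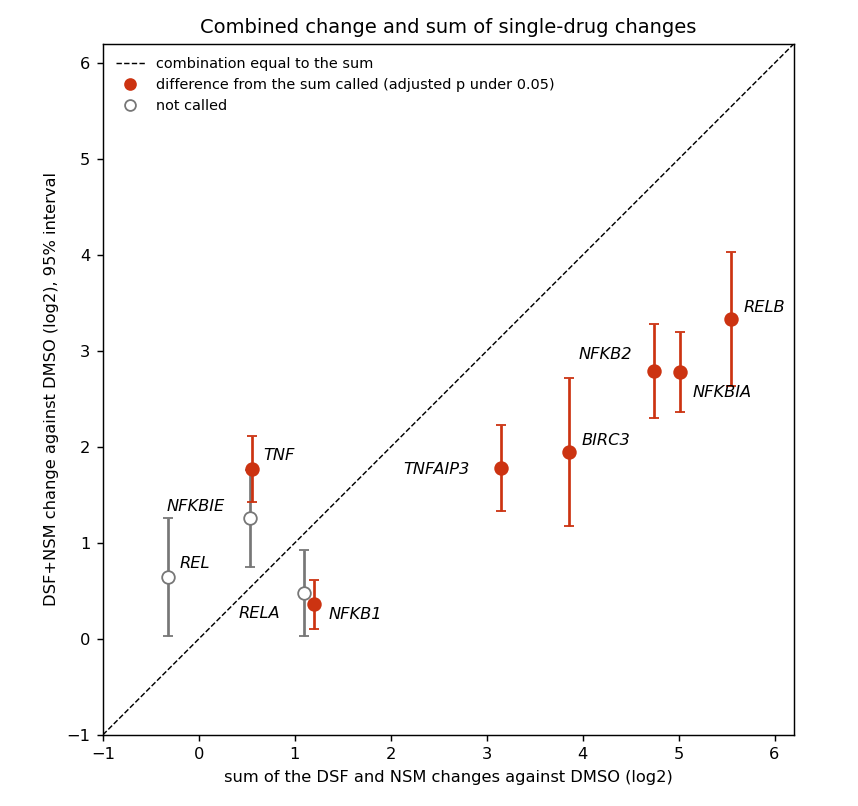
Log2 change with DSF+NSM against DMSO (y axis, with 95% confidence interval) and the sum of the DSF and NSM changes against DMSO (x axis) for the 10 NF-κB genes. The dashed line marks a combined change equal to the sum. NFKBIA, RELB, NFKB2, BIRC3, TNFAIP3 and NFKB1 lie below it with a called difference, and TNF lies above it.

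The patterns of the genes over the 12 libraries fell close together for some and apart for others. Pearson's r of log2 values between NFKB2 and NFKBIA was 0.990, and between NFKB2 and RELB 0.988. Between TNF and NFKBIE it was 0.850, whereas between NFKB2 and TNF it was 0.419. These describe 12 libraries that share 4 treatments and are not a test. Among all genes with a mean of at least 50, the most like NFKBIA were C5AR1 (r = 0.994), IL1RN (r = 0.992) and BCL3 (r = 0.991). IRAK2 (r = 0.991) and KLF2 (r = 0.991) were most like NFKB2, ahead of NFKBIA, and TRIB3 (r = 0.991) and ZFPL1 (r = 0.990) most like RELB, ahead of NFKB2. TNFAIP3 was closest to NFKBIA (r = 0.987), IL1RN (r = 0.984) and C5AR1 (r = 0.976), and BIRC3 to CXCL10 (r = 0.975), TMEM39A (r = 0.965) and ZFP36L1 (r = 0.965). The genes closest to TNF were others: FAM219A (r = 0.992) and the inducible heat shock protein genes HSPA1A (r = 0.986) and HSPA1B (r = 0.986), which are near-identical copies and may share reads.

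The wider pathway was followed in 98 other genes, of which 89 were listed and 86 tested. With DSF, 35 of the 86 (40.7%) were called higher and 0 lower, against 11.9% and 5.95% of all genes tested. With NSM 40 (46.5%) were higher and 8 (9.30%) lower, against 25.4% and 23.7%. With DSF+NSM 47 (54.7%) were higher and 9 (10.5%) lower, against 28.3% and 24.5%. The median log2 change was 0.48, 0.53 and 0.70. With equal sums the higher and lower calls were 28 and 1, 32 and 13, and 32 and 27, while 8.95%, 16.4% and 11.3% of all genes were called higher and 9.22%, 33.5% and 56.3% lower. Without NSM replicate 3 they were 48 and 4, 47 and 10, and 55 and 12, with 23.6%, 31.2% and 35.3% of all genes higher and 17.6%, 28.7% and 32.5% lower. The counts by role follow, each with its share called higher, to be read against the 11.9%, 25.4% and 28.3% of all genes. Differences between the roles were not tested. CXCL2, EBI3, LTA, IL23A, CSF1, NFKBIZ, IER3, MAP3K14 and CCND1 had DMSO means under 10 and passed the filter only with treated libraries counted. Such genes had little room to be called lower, and they enter the counts and medians of the wider list and of its roles. TRAF5, in contrast, passed through DMSO and DSF libraries alone.

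Of 11 tested receptor genes, 4 were called higher and 0 lower with DSF, 4 and 3 with NSM, and 4 and 2 with DSF+NSM, that is, 36.4% higher under each treatment. CD14, a co-receptor for bacterial lipopolysaccharide, had the largest rise, by 2.68 ± 0.26 with DSF (SE, log2; adjusted p = 3.26e-05), 1.54 ± 0.26 with NSM (adjusted p = 0.00042) and 2.46 ± 0.26 with DSF+NSM (adjusted p = 8.37e-06). TNFRSF1B, a TNF receptor, rose by 2.06 with DSF, 0.85 with NSM and 1.05 with DSF+NSM. LTBR, the lymphotoxin receptor of the non-canonical arm, rose by 1.04, 1.09 and 0.73 in that order. TLR2 rose by 1.45 with NSM and 0.75 with DSF+NSM, and its change with DSF (0.60, adjusted p = 0.114) did not pass the test. Of 27 adaptor, kinase and ubiquitin ligase genes, 3 were called higher and 0 lower with DSF, 7 and 3 with NSM, and 7 and 5 with DSF+NSM, with medians of 0.01, 0.25 and 0.03. The shares called higher, 11.1%, 25.9% and 25.9%, were near those of all genes. MYD88, the adaptor of Toll-like and interleukin-1 receptors, was at 870 to 939 in DMSO and 289 to 358 in DSF+NSM and fell by 1.43 on the log2 scale (SE 0.13; adjusted p = 2.19e-06). With NSM it fell by 0.54 (adjusted p = 0.00377), and with DSF the change was -0.09 (adjusted p = 0.681). RIPK1, the adaptor kinase of the TNF receptor, fell by 1.09 with DSF+NSM and was not called with DSF or NSM (0.07 and 0.05). RBCK1, a subunit of the linear ubiquitin ligase, rose by 0.95 with NSM and 1.18 with DSF+NSM, and was at 0.60 with DSF (adjusted p = 0.0508). RNF31, its catalytic subunit, rose by 0.61 with DSF and was not called with NSM (0.25) or DSF+NSM (0.03). TRAF3 rose by 0.41, 0.52 and 0.87, TRAF6 by 0.75 with NSM and 0.85 with DSF+NSM (0.06 with DSF, not called), and TAB2 by 1.07 with NSM (-0.0058 with DSF and 0.16 with DSF+NSM, not called).

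Of 15 other inhibitors and modulators, 7 were called higher and 0 lower with DSF, 9 and 0 with NSM, and 9 and 1 with DSF+NSM, with medians of 0.66, 0.76 and 0.81. The shares called higher were 46.7%, 60% and 60%. NFKBIZ, a nuclear IκB-like protein gene that NF-κB induces, was at 5.96 to 7.66 in DMSO, 35.4 to 80.7 with DSF, 101 to 156 with NSM and 275 to 371 with DSF+NSM. Its log2 change was 2.95, 4.05 and 5.39 (SE 0.29; adjusted p = 3.65e-05, 7.81e-07 and 3.93e-08). BCL3, another nuclear IκB protein gene, rose by 2.49, 3.67 and 3.34, and its NSM libraries (1026 to 1328) lay above its DSF+NSM libraries (862 to 1022). ZC3H12A, the gene of an RNase that degrades cytokine transcripts, rose by 1.21, 0.62 and 2.73, and CYLD, a deubiquitinase gene, by 0.73, 1.48 and 1.196.

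Of 14 cytokine and chemokine genes, 10 were called higher and 0 lower with DSF, 10 and 1 with NSM, and 12 and 0 with DSF+NSM, with medians of 1.79, 2.29 and 3.97. The shares called higher were 71.4%, 71.4% and 85.7%. They leave out CXCL1, CXCL3, IL1A, IL6, IL12B and CSF2, which were on the list but not among the genes measured. Among the 14, CXCL2, EBI3, LTA, IL23A and CSF1 had DMSO means of 0.98, 0, 2.26, 6.43 and 9.13. They passed the filter only with treated libraries counted and had little room to be called lower. CXCL8, the neutrophil chemokine interleukin-8, was at 225, 221 and 237 in DMSO and at 2633, 2774 and 1524 with DSF. It was at 742, 679 and 1203 with NSM and at 12122, 11709.7 and 18840.5 with DSF+NSM. The 4 groups did not overlap. The CXCL8 log2 change was 3.29 ± 0.27 with DSF (SE; adjusted p = 8.05e-06), 1.89 with NSM (adjusted p = 0.000108) and 5.92 ± 0.27 with DSF+NSM (adjusted p = 7.77e-09). CCL3 rose by 3.95, 3.86 and 7.10 with DSF, NSM and DSF+NSM, and CCL4 by 3.91, 3.01 and 6.50 in that order. Both have near-identical gene copies, so their values are uncertain. CSF1, the macrophage growth factor gene, was at a mean of 9.13 in DMSO, 63.3 with DSF, 114 with NSM and 459 with DSF+NSM, and rose by 2.64, 3.50 and 5.50. No pair of its groups overlapped.

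Of 19 survival, adhesion and other target genes, 11 were called higher and 0 lower with DSF, 10 and 1 with NSM, and 15 and 1 with DSF+NSM, with medians of 0.63, 0.72 and 1.57. The shares called higher were 57.9%, 52.6% and 78.9%. ICAM1, an adhesion molecule gene, was at 94.6 to 101 in DMSO, 690.2 to 1239 with DSF, 709 to 979 with NSM and 1101 to 1800.4 with DSF+NSM, and rose by 3.29, 3.11 and 3.77. IER3, an immediate early survival gene, rose by 3.69, 2.24 and 5.72. GADD45B, a stress gene, was at 656 to 729 in DMSO and 400.2 to 603 with NSM (not called), and rose by 1.41 with DSF and 5.57 ± 0.28 with DSF+NSM (SE, log2; adjusted p = 2.28e-08). MMP9 rose by 3.26 with DSF and 2.01 with DSF+NSM, RIPK2 by 1.98 with NSM and 1.57 with DSF+NSM, and PTGS2 by 1.45 with DSF and 4.33 with DSF+NSM. The remaining changes of these 3 were 0.62 for MMP9 with NSM, 0.15 for RIPK2 with DSF and 0.72 for PTGS2 with NSM, and none passed the test. Matches to the κB consensus were present in the windows of 9 of 16 cytokine genes, 6 of 14 other inhibitors, 4 of 16 other targets, 4 of 23 adaptors and 0 of 11 receptors, or 28.8% of the 80 genes of the wider lists with a window. Among them, CXCL1, CXCL3, IL6 and VCAM1 were not listed among the genes measured. NFKBIZ, BCL3, CYLD, TRAF3 and TAB2, named above as higher, had a match. CXCL8, CCL3, CCL4, CSF1, ICAM1, IER3, GADD45B, PTGS2 and MMP9 were not among the genes with a match. Whether matches go with the rises was not tested.

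**Figure D4:**
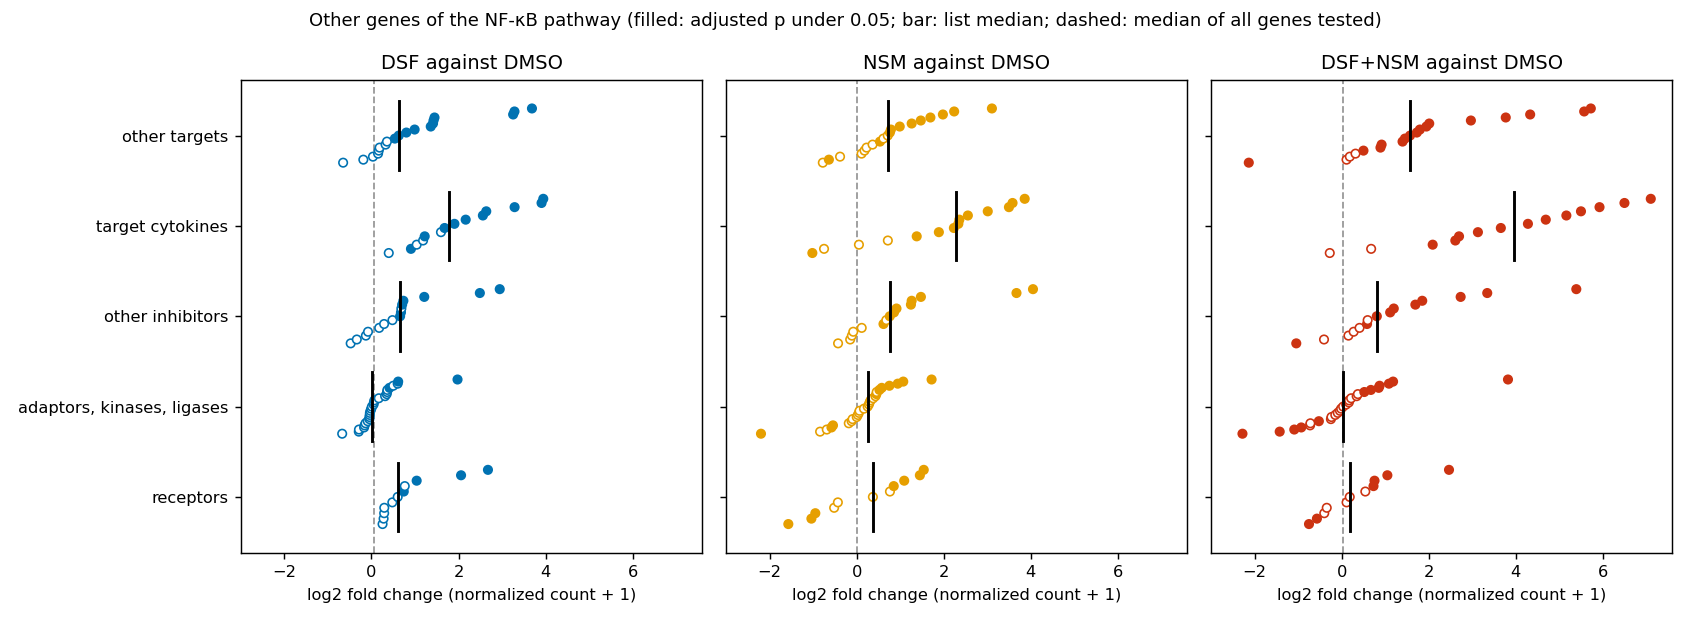
Log2 fold change against DMSO (x axis, log2(normalized count + 1) scale) of the tested genes of 5 lists of the NF-κB pathway (y axis) with DSF, NSM and DSF+NSM. Each point is a gene, filled where called, black bars are list medians and the dashed line is the median of all genes tested. The cytokine list has the highest median in each panel, at 1.79, 2.29 and 3.97.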

How the data were processed

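RNA-seq was performed on 12 SHI-1 libraries, 3 per group. Each library has its own table, in which the authors deposited a signal, the normalized count of each gene, scaled over 24 libraries (only these 12 were analysed here). For quantification the authors' supplement names STAR and Salmon, and the authors' processing notes list bcl2fastq 2.19, Trimmomatic, Bowtie2, Picard, featureCounts, DESeq2 and hg38. Only 32.2% to 32.9% of nonzero values were whole multiples of a library's step within 0.01, so whole reads could not be had and count tests were left out. Genes that reached 10 in 3 or more libraries were tested by limma 3.58.1 (R 4.3.3; moderated, with trend and robust) on log2(normalized count + 1), a scale that understates changes of low genes, with Benjamini-Hochberg adjustment. The test was checked on simulated data. The depth is an estimate, the sum divided by the step. All 10 members were named, together with up to 3 called genes of each wider list per comparison with DMSO (largest change, mean of at least 50) and the 3 genes most like each member whose group means spanned more than 1 (those of NFKBIE are not reported here). Members and lists were chosen with earlier results of these data known, so their counts are not independent support. Alternatives were other scalings, pseudocounts, filters, a replicate block, library weights and leaving out each library. p-values rest on 3 cultures per group and on a single moderated estimate of spread per gene, shared by all 4 groups. The p-value of a comparison therefore also depends on groups outside it. Without NSM replicate 3 the DSF change of RELA stayed at 0.56, while its limma adjusted p went from 0.0794 to 0.00416.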

Additional observations from a re-analysis of the deposited data

Results flagged for a closer look

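For 7 of the 10 genes the change under DSF+NSM differed from the sum of the changes under each drug, by the test of that difference itself (limma interaction term, adjusted over all 13502 genes, n = 3 libraries per group). The difference was -2.23 (SE 0.27, adjusted p = 0.000182) for NFKBIA, -2.21 (SE 0.45, adjusted p = 0.00372) for RELB and -1.96 (SE 0.32, adjusted p = 0.000936) for NFKB2. It was -1.91 (SE 0.50, adjusted p = 0.0144) for BIRC3, -1.37 (SE 0.29, adjusted p = 0.00474) for TNFAIP3 and -0.84 (SE 0.17, adjusted p = 0.00317) for NFKB1. TNF had the opposite sign, at 1.21 (SE 0.22, adjusted p = 0.002). Of all genes tested, 26.1% had a called difference.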

How the results depend on the processing

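The log2 changes of the 10 genes in 7 comparisons were recomputed under up to 26 alternatives, 1810 values in all, of which 1599 kept their direction and their side of the threshold, 87 lost the call, 54 gained it and 70 changed sign. The calls against DMSO of NFKB2, RELB, NFKBIA, TNFAIP3 and BIRC3 under each treatment, and those of TNF with DSF and with DSF+NSM, held under all 26. The alternatives that leave out NSM replicate 2 with DSF+NSM replicate 1, or NSM replicate 3 with DSF+NSM replicate 3, were chosen after seeing the data.

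Members called in DSF+NSM against DSF numbered 2 with equal sums, with and without rRNA genes, and both (NFKB1 and RELA) were then lower. Of all genes, 61.0% and 57.5% were called under these 2 settings. When libraries were left out the count was 1 to 6 (34.6% to 64.2% of all genes). In DSF+NSM against NSM the count was 2 when only the groups compared were fitted (19.1% of all genes) and 2 to 6 with libraries left out (25.2% to 58.2%). In NSM against DSF it was 1 with equal sums (both versions, 44.5% and 44.4% of all genes) and 5 with library weights (76.8%). With libraries left out it was 1 to 4 (34.1% to 61.1% of all genes). Calls in the wider list with DSF were 58 with only the groups compared (56.0% of all genes were called) and 60 with library weights (60.5%). With libraries left out they were 25 to 59 (6.77% to 51.8% of all genes). With NSM they were 74 with library weights, where 82.3% of all genes were called. Calls over all genes with DSF went from 2405 to 7150 with only the groups compared, 8171 with library weights, 5551 without NSM replicate 3 (6895 without DSF+NSM replicate 3 too) and 911 without DSF replicate 2. In DSF+NSM against NSM they went from 5212 to 2483 with only the groups compared, 9782 with weights and 3343 without NSM replicate 2 and DSF+NSM replicate 1. In NSM against DSF they went from 5991 to 3886 and 10369, in DSF+NSM against DSF from 5818 to 9120 with weights, and with NSM from 6635 to 11107 with weights. The interaction went from 3527 to 8933 with weights, 6175 without NSM replicate 3, 7318 without DSF+NSM replicate 3 too, and 2224 without NSM replicate 2 and DSF+NSM replicate 1. Without DMSO replicates 1, 2 or 3 or DSF replicate 1 the DSF calls were 1160, 1058, 1393 and 1166. Of the called genes, the share higher with DSF+NSM was 53.6% as deposited and 16.7% with equal sums.

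With equal sums, and then with equal sums without rRNA genes, the sign changed in DSF+NSM against DMSO for NFKB1 (-0.42 and -0.30), REL (-0.13 and -0.0021) and RELA (-0.30 and -0.18). It changed against DSF for BIRC3 (-0.49 and -0.40), NFKBIA (-0.10 and -0.0061) and TNFAIP3 (-0.31 and -0.22). It changed against NSM for NFKB2 (-0.39 and -0.30), RELB (-0.44 and -0.35) and TNFAIP3 (-0.48 and -0.39), and in NSM against DMSO for NFKBIE (-0.14 and -0.10). Scaling to equal sums changes all genes of a library by the same factor. Library weights changed it in DSF+NSM against DSF for BIRC3 (-0.21), against NSM for NFKB2 (-0.034), NFKBIA (0.026) and RELB (-0.38), and in NSM against DSF for BIRC3 (-0.057), RELA (0.078) and TNFAIP3 (-0.043). In NSM against DSF the median of ratios gave REL at 0.0018 and RELA at 0.013, and the trimmed mean gave TNFAIP3 at -0.0045 in DSF+NSM against NSM. The cause of the changes under weights and these scalings was not tested.

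With libraries left out, values that crossed 0 ranged as follows. In DSF+NSM against DSF, BIRC3 ranged from -0.18 to 0.39 and RELA from -0.23 to 0.025. In DSF+NSM against NSM, BIRC3 ranged from -0.52 to 0.21, NFKB2 from -0.21 to 0.29, NFKBIA from -0.22 to 0.085, RELA from -0.39 to 0.10, RELB from -0.56 to 0.38 and TNFAIP3 from -0.12 to 0.14. In NSM against DSF, BIRC3 ranged from -0.025 to 0.55, NFKBIE from -0.47 to 0.031, REL from -0.31 to 0.17 and RELA from -0.18 to 0.21. Against DMSO, NFKBIE ranged from -0.066 to 0.43 and REL from -0.45 to 0.030 with NSM, and REL from -0.25 to 0.043 with DSF.

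Replicate numbers were shared between groups. Deviations of same-numbered libraries correlated at -0.06 to 0.28 over 18 pairs (median 0.06). Those of differently numbered libraries correlated at -0.23 to 0.24 over 36 pairs (median -0.03). Of 12 libraries, 6 correlated best with their own number. The numbers were not taken to pair the samples, but these values do not exclude a pairing. With a replicate block, members called numbered 7, 6 and 9 with DSF, NSM and DSF+NSM against DMSO (18.7%, 50.7% and 53.9% of all genes were called). They numbered 6 in DSF+NSM against DSF (44.3% of all genes), 4 against NSM (40.0%) and 3 in NSM against DSF (46.0%). For the interaction 9 were called (27.0% of all genes). Depth limits REL and BIRC3 most, which had the lowest values in DMSO.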

Other observations

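A few genes of the wider lists that the naming rule did not cover are given here, chosen after their values were seen. CCL2, the monocyte chemokine, was at 419, 434 and 431 in DMSO and 1837, 1681 and 1341 with DSF, and at 158, 205 and 289 with NSM. It rose by 1.91 with DSF (log2; limma adjusted p = 5.29e-05), fell by 1.02 with NSM (adjusted p = 0.00109) and was at 347 to 362 with DSF+NSM (-0.28, adjusted p = 0.261). IL1B, the interleukin-1β gene, was at 123 to 125 in DMSO, 256 to 314 with DSF, 100.2 to 154 with NSM and 719 to 811 with DSF+NSM. As for TNF, DSF+NSM was highest and DSF next. Unlike TNF, NSM overlapped with DMSO and its mean was slightly higher (131 against 124). It rose by 1.22 with DSF (adjusted p = 0.000623) and 2.61 with DSF+NSM (adjusted p = 1.84e-07). MAP3K14, the gene of the kinase NIK that starts the non-canonical arm, was low, at 3.92 to 7.95 in DMSO, and at 17.4 to 34.7 with DSF, 10.2 to 32.4 with NSM and 68.8 to 134 with DSF+NSM. It rose by 1.98 (adjusted p = 0.0122), 1.72 (adjusted p = 0.0079) and 3.82 (adjusted p = 2.29e-05). MAP3K14 passed the filter only with treated libraries counted, so these p-values are not independent support.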
